A study of Mus musculus with 12 samples.

Results

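CTCF HiChIP of mouse embryonic stem cells was set against Hi-C of the same cells to find which loci and which loop lengths the CTCF antibody enriched in the pluripotent state. These were 4 of the 12 samples of the series, 2 CTCF HiChIP and 2 Hi-C, and each group was deposited as a single table of the merged replicates. Hi-C cross-links chromatin, cuts it with a restriction enzyme, joins DNA ends that lie close together and reads the joined pairs, and HiChIP adds an immunoprecipitation that keeps pairs bound by a chosen protein. The whole series compared E14Tg2A embryonic stem cells (ESC), kept in 100 U/mL leukemia inhibitory factor (LIF), with neuronal committed cells (NCC) made from them by 1 µM all-trans retinoic acid for 48 h without LIF. Each cell state was read by Hi-C, by HiChIP for the nuclear form of the receptor FGFR1 and by HiChIP for CTCF. All samples came from the one E14Tg2A line, so nothing here tells this line from other stem cells.

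CTCF is a zinc-finger protein that binds a directional DNA motif. The cohesin ring extrudes chromatin loops until it is stopped by CTCF, most often at motifs that point towards each other, and such stops form many borders of the topologically associating domains. In pluripotent cells CTCF marks domain borders and insulates genes from the enhancers of neighbouring domains.

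A table entry was a pair of anchors, that is, a pair of restriction-fragment regions with the number of read pairs that joined them. On the 19 autosomes CTCF HiChIP held 1210721 read pairs in 876738 interactions, 83.3% of which rested on 1 read pair, whereas Hi-C held 20643821 read pairs. The anchors had been called in each library separately: 167001 in CTCF HiChIP, with a median length of 2216 bp and a covered length of 433 Mb, and 245035 in Hi-C, with a median of 2897 bp and 919 Mb. The mean load was 5.59 ends per covered kb in CTCF HiChIP and 44.9 in Hi-C. As each group was one pooled library, no spread between replicates could be measured. All intervals below are 95% intervals for counting error alone, and every comparison is between libraries. FGFR1 HiChIP of ESC (2645713 pairs, measured against the same Hi-C library) and CTCF HiChIP of NCC (1049415 pairs, against NCC Hi-C) are given beside the main comparison where they show whether a value went with the CTCF antibody. Contact tables hold no expression values, so the cell labels could not be checked against marker genes.

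The sequence that CTCF recognises was searched as a 12-base core on both strands of the mouse genome (GRCm38), with 4 positions open to either of a pair of bases, and it occurred 12245 times on the autosomes. The 16 words it allows are shown by their extremes, because the enrichment of CTCF HiChIP over the surrounding chromatin differed between them (values follow in the account of the sites). The commonest word, the words with the strongest and the weakest CTCF HiChIP peak and the sites within the most enriched loci were as follows, with the core in capitals where flanking bases are given and each sequence written 5′ to 3′ on the strand of the core.
commonest word: CCAGCAGAGGGC
word with the highest CTCF HiChIP peak: CCACCAGGGGGC
word with the lowest CTCF HiChIP peak: CCAGTAGATGGC
Ncs1 site, chr2:31295160-31295189, minus strand: ggctcatcaCCACCAGGGGGCgtccccatg
site between genes, chr2:26640317-26640346, minus strand: gcgaaggagCCACTAGAGGGCgcggcactc
Wnt5b site, chr6:119444303-119444332, minus strand: agtcatccaCCAGCAGAGGGCagcagagca
Tekt1 site, chr11:72355144-72355173, plus strand: accagtgttCCACCAGGGGGCgcagtccta
site at the other end of the Wnt7a contact, chr6:91286839-91286868, plus strand: gtggcacgcCCAGTAGGGGGCtcttccaga
1 of 7 evenly spaced sites in Sec22c, chr9:121697694-121697723, plus strand: tgccagtggCCACCAGAGGGCactgtaggc

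Read pairs were first sorted by the distance between anchor midpoints. The largest gain in CTCF HiChIP was in pairs whose ends fell within 1 anchor: 28.3% of all pairs (342819 pairs) against 20.8% in Hi-C, a ratio of 1.36 (1.35 to 1.36). The ratio was above 1 on 19 of 19 autosomes, with log2 values from 0.39 to 0.48. Pairs under 10 kb took nearly equal shares (8.61% and 8.52%). All classes from 10 kb upwards took a smaller share of CTCF HiChIP than of Hi-C. The ratio was lowest at 10 to 20 kb (0.794, 0.788 to 0.800), and it was 0.839 at 50 to 100 kb, 0.890 at 200 to 500 kb and 0.965 (0.955 to 0.976) at 1 to 2 mb. Pairs between different autosomes took 9.85% and 10.0%.

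The gain within single anchors was found in CTCF HiChIP of ESC and not at this size in the other HiChIP libraries. FGFR1 HiChIP of ESC had 20.02% of its pairs within 1 anchor, a ratio of 0.960 (0.958 to 0.963) to the same Hi-C library. CTCF HiChIP of NCC had 20.4% against 19.8% in NCC Hi-C, a ratio of 1.03 (1.02 to 1.03). Compared at equal anchor length, all 3 HiChIP libraries exceeded Hi-C, ESC CTCF HiChIP by most. In anchors under 1500 bp, 25.8% of CTCF HiChIP ends and 14.1% of Hi-C ends belonged to such pairs, and in anchors of 5000 bp and over 34.4% and 24.8%. FGFR1 HiChIP had 15.4% and 26.9% in these classes. NCC CTCF HiChIP had 16.6% and 27.9%, against 12.6% and 23.7% in NCC Hi-C. In ESC CTCF HiChIP such pairs were spread over 115470 anchors (69.1% of them) with a median of 2 pairs each, and the 1% of those anchors with most such pairs held 6.27% of them.

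**Figure D1:**
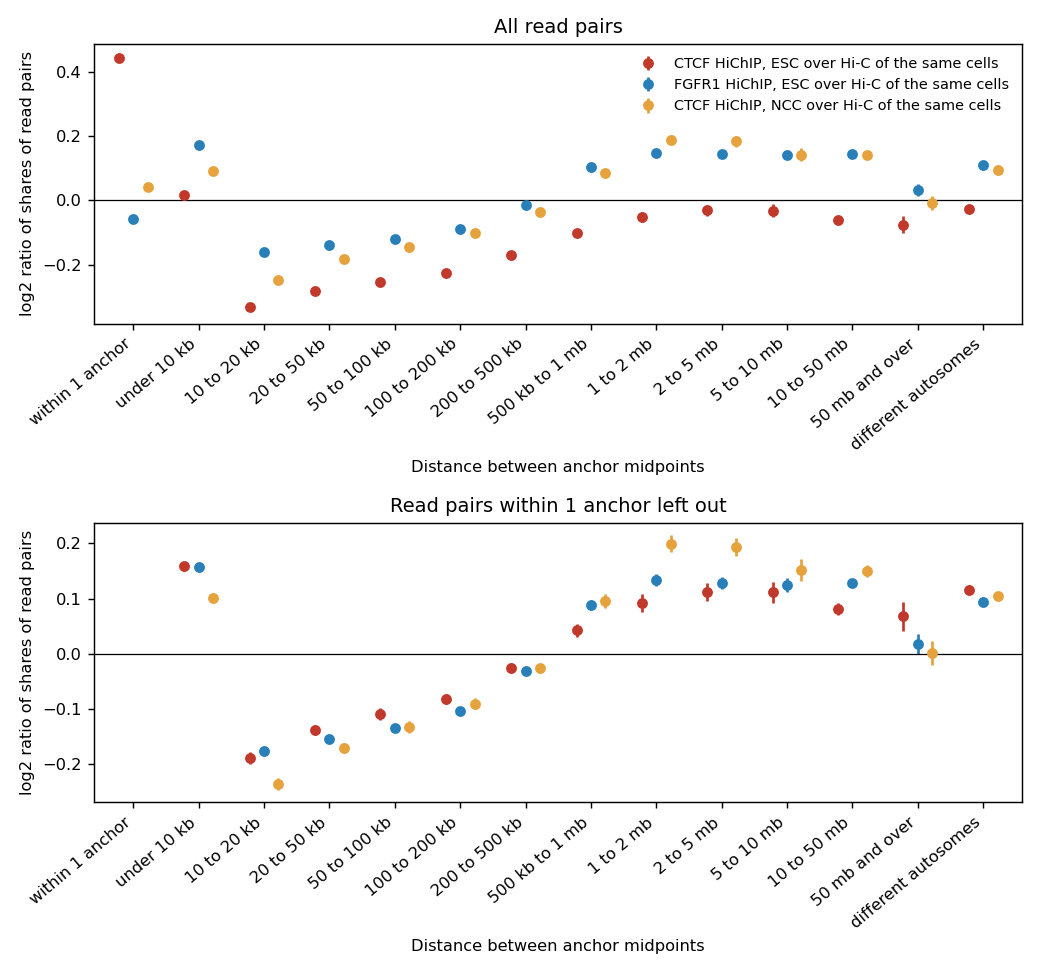
The log2 ratio of shares of read pairs, HiChIP over Hi-C of the same cells, is plotted for each distance class with 95% counting intervals, for all pairs (top) and with pairs within 1 anchor left out (bottom). CTCF HiChIP of ESC stands alone at 0.44 for pairs within 1 anchor, and the 3 comparisons run close together once those pairs are left out.

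With pairs within 1 anchor left out of the totals, CTCF HiChIP had relatively more of the shortest and of the longest contacts and fewer in between. Pairs under 10 kb then made up 12.01% of CTCF HiChIP and 10.8% of Hi-C (ratio 1.12, 1.11 to 1.12, above 1 on 19 of 19 autosomes). The ratio was 0.877 (0.871 to 0.883) at 10 to 20 kb, 0.927 (0.920 to 0.933) at 50 to 100 kb and 0.982 (0.977 to 0.988) at 200 to 500 kb. It passed 1 at 500 kb to 1 mb (1.03, 1.02 to 1.04), and was 1.07 (1.05 to 1.08) at 1 to 2 mb and 1.08 (1.08 to 1.09) between autosomes. The classes from 20 kb to 500 kb, in which many CTCF loops are known to lie, were not overrepresented as a whole. FGFR1 HiChIP had 0.885 at 10 to 20 kb and 1.10 at 1 to 2 mb, and NCC CTCF HiChIP had 0.849 and 1.15, and their ratios too rose with distance from below to above 1.

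Next, the 2 ends of each pair were counted in 10 kb bins at the midpoint of their anchor, and each bin's share of all ends was compared. A bin was tested where the mean of its CTCF HiChIP ends and its Hi-C ends, scaled to the same total, was at least 10. Of 246285 bins, 88974 were tested. CTCF HiChIP was at least 2-fold higher in 23977 (26.9%) and at least 2-fold lower in 17070 (19.2%), with a median log2 ratio of 0.25 over the tested bins. Where anchors had been drawn bore on these counts. Among the higher bins 2681 held no Hi-C end, and 1890 of these lay under a Hi-C anchor whose midpoint was in another bin. Among the lower bins 7027 held no CTCF HiChIP end, 2288 of them under a CTCF HiChIP anchor. When the ends of an anchor were shared among the bins it overlapped, by length, 22.3% of 91903 bins were higher and 16.6% lower, and 17013 higher and 11333 lower bins were called in both ways.

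The ratio moved with the base composition of the chromatin. Bins at least 2-fold higher in CTCF HiChIP had a median GC content of 41.95%, against 46.9% for the lower bins and 44.5% for all tested bins. All classes held a median of 24 restriction sites. Of the higher bins 8.89% held the start site of a protein-coding gene and 54.9% overlapped such a gene, whereas 16.0% and 70.6% of the lower bins did. Summed over bins, the ratio of shares fell in order from 1.99 (1.984 to 2.005) below 38% GC through 1.30 at 38 to 42%, 0.979 at 42 to 46% and 0.829 at 46 to 50% to 0.688 (0.685 to 0.692) at 50% and over. FGFR1 HiChIP went from 2.28 to 0.625 and NCC CTCF HiChIP from 2.70 to 0.646 over the same classes. A lower share of GC-rich chromatin than in Hi-C was thus measured in all 3 HiChIP libraries, each of which was far less deep than Hi-C. The part of depth was not tested.

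Whole autosomes differed by small amounts. Chromosome 3, with 40.5% GC, had the highest share in CTCF HiChIP relative to Hi-C (5.45% against 4.60% of ends, log2 ratio 0.24). Chromosomes 8 and 11 had the lowest, with log2 ratios of -0.18 and -0.13 and GC contents of 42.4% and 43.8%.

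Bins with a CTCF consensus site were then compared with bins without one. Bins without a match to the core were not shown to be free of CTCF. Of all bins, 11574 held a site. They took 8.13% of CTCF HiChIP ends and 8.38% of Hi-C ends, a ratio of 0.971 (0.966 to 0.976), so that without regard to GC content the sites were not enriched. Bins with a site are rich in GC. Within classes of equal GC content, bins with a site held 1.13 times the ends expected from bins without one (1.12 to 1.13), and 19 of 19 autosomes were above 1. On the log2 scale this was 0.17, and it was 0.29 in 5 kb bins, 0.06 in 25 kb bins, 0.09 in bins with an anchor in both libraries and 0.03 with a looser consensus. The excess was 1.05 (1.03 to 1.06) at 38 to 42% GC, 1.12 (1.11 to 1.14) at 42 to 46%, 1.16 (1.15 to 1.17) at 46 to 50% and 1.15 (1.14 to 1.17) at 50% and over. Below 38% GC, where 644 bins held a site, the value was 0.904 (0.870 to 0.939).

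This excess was larger with the CTCF antibody than with the FGFR1 antibody in the same cells. FGFR1 HiChIP had 1.015 times the expected ends (log2 ratio 0.02, 0.01 to 0.03) in bins with a site, and CTCF HiChIP set directly against FGFR1 HiChIP gave 1.11 (1.10 to 1.12), above 1 on 19 of 19 autosomes. NCC CTCF HiChIP gave 1.18 (1.17 to 1.19) over NCC Hi-C.

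**Figure D2:**
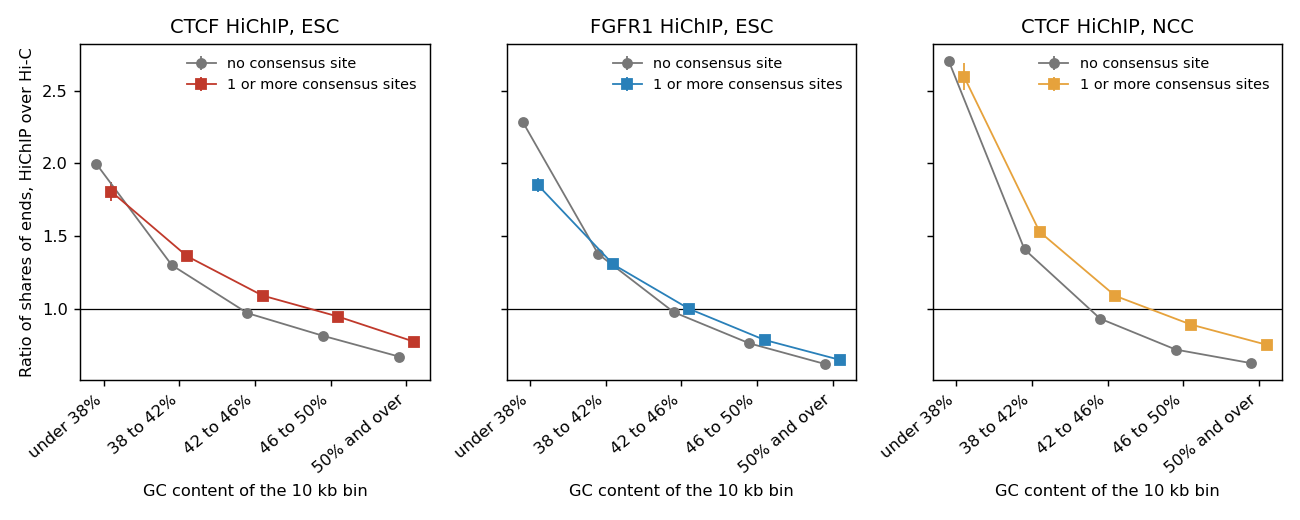
The ratio of shares of ends, HiChIP over Hi-C of the same cells, is plotted against the GC content of 10 kb bins, for bins with and without a CTCF consensus site, with 95% counting intervals. All 3 libraries fall with GC content, and in the classes from 42% GC the bins with a site lie 1.12 to 1.16 times above those without in CTCF HiChIP of ESC and 1.02 to 1.05 times above in FGFR1 HiChIP.

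Among bins with a site, the CTCF HiChIP ratio was higher where there were more sites, with GC content not held equal. Bins with 0 sites had 1.003 (1.001 to 1.005), above those with 1 site. The ratio of CTCF HiChIP to Hi-C was 0.962 (0.956 to 0.967) in 10958 bins with 1 site, 1.06 (1.04 to 1.08) in 585 bins with 2 sites and 1.56 (1.45 to 1.68) in 31 bins with 3 or more. FGFR1 HiChIP had 0.855, 0.782 and 0.870 in the same bins, and NCC CTCF HiChIP 0.957, 1.03 and 1.25. Of the bins with 3 or more sites, one in Sec22c, a gene of vesicle transport, held 7 sites at equal spacing, of which 1 is printed above. It had 40 ends in CTCF HiChIP and 161 in Hi-C, and counted by read pairs the ratio was 3.63 (2.41 to 5.31). With ends shared by length it was 3.85, against 0.908 in FGFR1 HiChIP and 0.639 in NCC CTCF HiChIP. A bin outside protein-coding genes at chr6:70800001-70810000 with 3 sites had 37 and 92 ends, a ratio of 5.81 (3.71 to 8.89) in read pairs. Shared by length it had 6.39, with 1.44 in FGFR1 HiChIP and 2.98 in NCC CTCF HiChIP. The Sec22c and chromosome 6 bins had the highest read-pair ratios of those with ends in both libraries. Others were below 1, such as that in Unc5b with 3 sites (20 and 1076 ends, 0.348, 0.209 to 0.547). A bin at chr4:134290001-134300000 with 3 sites held 0 CTCF HiChIP ends against 160. The bin with most sites, 15 in Eif3b, had 25 and 318 ends (1.31, 0.809 to 2.02), and its sites lay in no anchor of either library.

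At a scale finer than the bins the sites stood out. Ends were shared over 1 kb bins by the length of the anchors and averaged around the 12245 sites. In CTCF HiChIP the mean was 1.03 per 1000000 ends in the 3 kb at the site and 0.588 at 20 to 30 kb from it, a peak of 1.76 times. Hi-C rose from 0.670 to 0.836, or 1.25 times, and FGFR1 HiChIP from 0.555 to 0.764, or 1.38 times. NCC CTCF HiChIP had a peak of 1.94 times and NCC Hi-C one of 1.22 times. The highest 1 kb bin was that of the site itself in all 5 libraries. Depth and anchor calling differ between these libraries, and their part in the peak height was not tested.

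**Figure D3:**
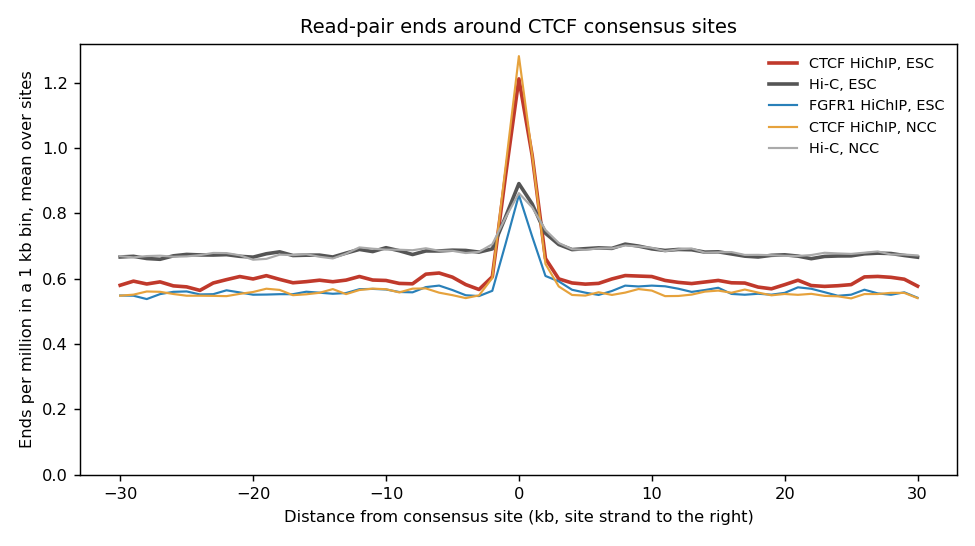
Mean read-pair ends per 1000000 ends in 1 kb bins are plotted against the distance from CTCF consensus sites, oriented by the strand of the site, for the 5 libraries. CTCF HiChIP of both cell states peaks above 1.2 ends per 1000000 at the site, whereas the Hi-C and FGFR1 HiChIP libraries stay below 0.9.

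The peak differed between words of the consensus. It was highest in CTCF HiChIP at the 778 sites of CCACCAGGGGGC, at 2.21 times the flanks, where Hi-C reached 1.38 and FGFR1 HiChIP 1.59. It was lowest at the 510 sites of CCAGTAGATGGC, at 1.29 times against 1.12 in Hi-C and 1.29 in FGFR1 HiChIP. The commonest word, CCAGCAGAGGGC with 1867 sites, had 1.718 and 1.205. Words that share ATGGC at their end were low: CCAGCAGATGGC had 1.33 in CTCF HiChIP and CCACCAGATGGC 1.45, and CCACTAGATGGC, the exception, had 1.73. All 16 words had a higher peak in CTCF HiChIP than in Hi-C. NCC CTCF HiChIP had its highest (2.57) and lowest (1.43) peaks at the same words as ESC.

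Anchors of CTCF HiChIP were denser in sites per length but not per anchor. CTCF HiChIP anchors held 4554 sites, or 10.5 per covered Mb, against 8.08 in Hi-C anchors, 8.40 in FGFR1 HiChIP anchors, 10.7 in NCC CTCF HiChIP anchors and 5.11 in the autosomes as a whole. For anchors of 1500 to 2000 bp the densities were 11.97 in CTCF HiChIP, 7.38 in Hi-C and 9.67 in FGFR1 HiChIP. Of the shorter CTCF HiChIP anchors 2.63% held a site and took 4.16% of ends, against 2.90% and 5.89% in Hi-C. As Hi-C anchors covered more of the genome, 60.6% of all sites lay in a Hi-C anchor and 37.2% in a CTCF HiChIP anchor. Of the sites in CTCF HiChIP anchors 88.6% were also in a Hi-C anchor, whereas 54.3% of those in Hi-C anchors were in a CTCF HiChIP anchor. Anchors with a site carried more ends per kb than those without, 7.45 against 5.53 in CTCF HiChIP and 59.6 against 44.3 in Hi-C, a ratio of 1.35 in each. It was 1.19 in FGFR1 HiChIP.

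The orientation of sites was read in pairs of anchors 20 kb to 2 mb apart where each anchor held sites of 1 strand. In CTCF HiChIP 1307 read pairs could be scored, 0.297% of those in the distance range. The sites pointed towards each other in 473 of them (36.2%, Wilson interval 33.6 to 38.8) and away from each other in 222 (17.0%). Hi-C had 31.7% (31.3 to 32.2) convergent, 25.5% both forward, 23.2% both reverse and 19.6% divergent among 41462 read pairs. The odds of a convergent pair were 1.22 times higher in CTCF HiChIP (1.09 to 1.37, two-sided Fisher's exact test on read pairs, p = 0.000813, 0.00244 adjusted over 12 such tests). The same-strand classes are 1 arrangement read from either strand, yet in CTCF HiChIP they differed by more than the convergent shares did between libraries. Read pairs that join the same anchors are not independent, so these intervals and p-values can understate the error. Of the narrower ranges tested, the odds ratio was higher at 20 to 100 kb, where 35.5% and 29.5% of pairs were convergent (odds ratio 1.31, 1.10 to 1.57, Fisher's exact p = 0.00319, adjusted 0.00546). At 100 kb to 1 mb the shares were 36.8% and 33.8%, and the odds ratio of 1.14 (0.977 to 1.33) did not pass the test (Fisher's exact p = 0.0984, adjusted 0.131). The intervals of these odds ratios overlapped. At 1 to 2 mb, where CTCF HiChIP had 51 scored pairs, the shares were 35.3% and 29.4%, and no test was run.

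The convergent share in FGFR1 HiChIP of ESC could not be told from that in CTCF HiChIP. FGFR1 HiChIP had 36.0% convergent among 2000 scored pairs, and CTCF against FGFR1 HiChIP gave a log2 odds ratio of 0.01 (-0.19 to 0.22, Fisher's exact p = 0.912, adjusted 0.912), an interval that leaves room for a difference in either direction. NCC CTCF HiChIP had 40.5% against 34.3% in NCC Hi-C, an odds ratio of 1.30 (1.17 to 1.45). Beyond 2 mb the convergent share of ESC CTCF HiChIP was 28.02% (22.003 to 34.9) and that of Hi-C 25.6%.

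**Figure D4:**
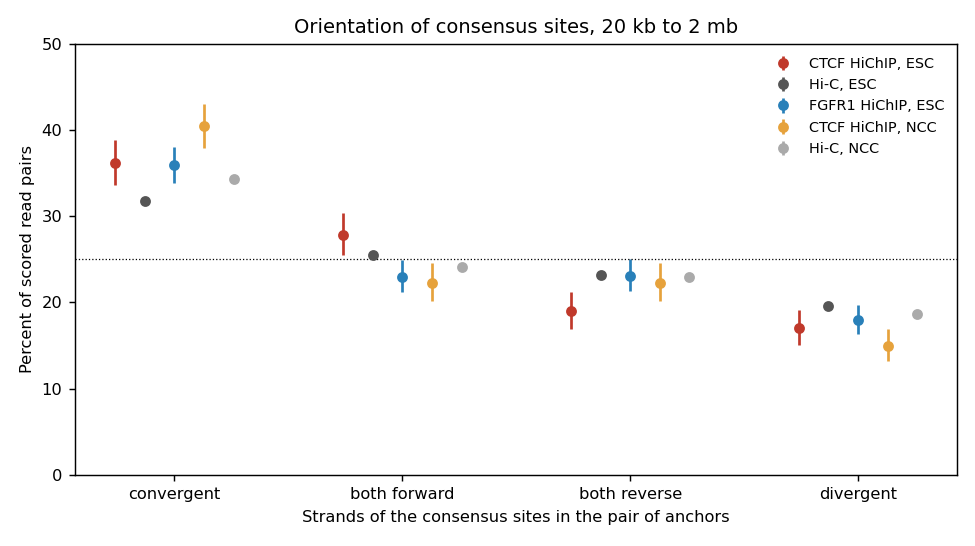
The share of scored read pairs with consensus sites that converge, lie both on the forward or both on the reverse strand, or diverge is plotted for the 5 libraries with Wilson 95% intervals, for anchors 20 kb to 2 mb apart, and the dotted line marks 25%. Convergent pairs are the most frequent of these 4 classes in all 5 libraries, at 36.2% in ESC CTCF HiChIP and 31.7% in ESC Hi-C.

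Pairs in which both anchors held a site were also more frequent at loop distances than the share of such ends alone would give. At 50 to 100 kb, 280 of 74620 CTCF HiChIP pairs (0.375%) joined 2 such anchors, 2.17 times the product of the shares of ends. In Hi-C it was 9712 pairs, a higher share (0.641%) but 1.85 times the product, and in FGFR1 HiChIP 1.82 times. At 100 to 200 kb CTCF HiChIP had 2.09, Hi-C 1.69 and FGFR1 HiChIP 2.32 times, so that CTCF HiChIP was not highest there. Between 1 and 2 mb the values were 0.908 and 0.996 times.

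Single loci were named by their ratio among bins with a mean of at least 50 ends. Under the midpoint rule all of the 10 highest bins held 0 Hi-C ends, although Hi-C anchors with their midpoints in other bins overlapped them. They lay in Gm12216, Anapc16, Ece1, Capzb, Tnxb, Sbk1, Znrf1, 3100002H09Rik and Pnpla3 and in 1 bin without a gene on chromosome 5, and with ends shared by length their ratios were 1.32 to 2.27. The bin in Gm12216, for example, held 149 CTCF HiChIP ends and no Hi-C end by midpoints, at least 847-fold higher against a floor of 3 ends, but 123 and 990 ends when shared, a ratio of 2.12. The 10 lowest bins held 0 CTCF HiChIP ends and 2224 to 3213 Hi-C ends, in Kcnn1, Capzb, Col8a2, Llgl2, Ahnak2, Itgb4, Cd248, Grk6 with Prr7, Setd1b and a bin without a gene on chromosome 2. Capzb held neighbouring bins at both extremes. The loci below were therefore ranked with ends shared by length, a choice made after these values were seen.

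The highest bin by that ranking was chr6:103640001-103650000 in Chl1, a neural cell adhesion gene, with 460 CTCF HiChIP ends and 508 Hi-C ends. In read pairs the ratio was 15.5 (13.6 to 17.6). Of its CTCF HiChIP pairs 98.5% went to other autosomes, and of its Hi-C pairs 92.7%, against 9.85% and 10.0% over all pairs. It was also high in FGFR1 HiChIP (2.81) and NCC CTCF HiChIP (5.41). With contacts almost wholly on other autosomes in both of these libraries, this bin stands apart from the loci that follow.

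The following bins had no such excess of pairs to other autosomes. In the olfactory receptor genes Olfr94 and Olfr95 on chromosome 17 there were 90 CTCF HiChIP and 186 Hi-C ends, a ratio of 8.25. FGFR1 HiChIP had 1.38 there and NCC CTCF HiChIP 12.2. Of the CTCF HiChIP pairs of that bin 42.9% fell within 1 anchor, and of its Hi-C pairs 11.4%. A bin without a protein-coding gene at chr9:50450001-50460000 had 89 and 234 ends, a ratio of 6.49, beside 1.23 in FGFR1 and 4.51 in NCC CTCF HiChIP. The bins were picked for a high ESC CTCF HiChIP ratio, so its excess over FGFR1 HiChIP was set by the choice. NCC CTCF HiChIP, measured over NCC Hi-C, was also above FGFR1 HiChIP in these bins. The reverse held in the Wnt5b bin given below.

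Rapgef1, a guanine nucleotide exchange factor, had a shared ratio of 6.32 at chr2:29610001-29620000, with 5.27 in NCC CTCF HiChIP and 2.02 in FGFR1 HiChIP. Ncoa7 had 5.55, Asic1, an acid-sensing ion channel, 4.86, and Nemp1, a nuclear envelope gene, 4.58. The last 3 held a consensus site. These were Wnt5b, a secreted Wnt ligand (4.54, with 3.15 in FGFR1 and 1.85 in NCC CTCF HiChIP), an intergenic bin at chr2:26640001-26650000 (4.46, 0.968 and 2.04) and Ncs1, a neuronal calcium sensor (4.40, 1.66 and 3.97). The sites in these bins, printed above, lay in anchors of both libraries. Together 3 of the 10 highest and 2 of the 10 lowest bins held a site. Of all bins with a mean of at least 10 ends 7.94% did. The named bins were drawn from those with a mean of at least 50, for which this share is not given. No enrichment of sites can be read from these counts. In 9 of the 10 highest bins, all but Chl1, the share of pairs within 1 anchor was higher than in Hi-C. It ran from 5.59% against 4.98% in Ncs1 to 44.0% against 9.33% in Asic1. Over all pairs this share was also higher, at 28.3% against 20.8%, and how many other bins had such a gain was not counted.

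The lowest bins lay in GC-rich chromatin. Their GC content was 49.5 to 59.9%. They were in Llgl2, 2310011J03Rik with Apc2, Evpl, Rnf207, Rundc3a with Slc25a39, Gpx4 with Sbno2, Ski and Sbno2, and in 2 bins outside genes. Llgl2, a cell polarity gene, had no CTCF HiChIP end against 2486 Hi-C ends by midpoints, at least 48.6-fold lower. Ski, a repressor of TGF-beta signalling, had 42 and 1668, and a shared ratio of 0.299. FGFR1 HiChIP was also low in all 10 bins (0.183 to 0.590), and NCC CTCF HiChIP was low in most of them. NCC CTCF HiChIP held 0 ends in the bin of Llgl2 and in that at chr12:86890001-86900000. Its ratios were 0.169 at Evpl, 0.239 at chr11:120180001-120190000, 0.349 at Apc2, 0.568 at Gpx4 with Sbno2 and 0.596 at Sbno2. They were higher at Rundc3a (0.762), Rnf207 (0.967) and Ski (1.09).

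Contacts between pairs of 10 kb bins at least 50 kb apart were too thin for loops to be called one by one. CTCF HiChIP had 492461 read pairs in 462155 such bin pairs, of which 94.6% held 1 read pair, 319 held 5 or more and 8 held 10 or more. The highest count was 12. It was found between Tekt1, which encodes a ciliary microtubule protein, and a bin 80 kb away outside genes on chromosome 11 (15 in Hi-C, a ratio of 13.6, exact interval 5.83 to 31.2). The adjoining Tekt1 bin, which holds the plus-strand site printed above, had 10 and 20 pairs with the same partner. With both bins widened by 1 neighbour on each side the Tekt1 contact had 23 and 67 read pairs, a ratio of 5.85 (3.48 to 9.52).

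The other contact with 12 read pairs joined Aes to BC025920 and Tle6 over 50 kb on chromosome 10, with 67 in Hi-C (ratio 3.05, 1.503 to 5.69) and a minus-strand site in each bin. The site in the bin of BC025920 and Tle6 lay in a Hi-C anchor but in no CTCF HiChIP anchor. Wnt7a, a Wnt ligand of neural development, had 11 pairs with a bin 130 kb away that holds a plus-strand site, 56 in Hi-C (ratio 3.35, 1.58 to 6.46), 11 in NCC CTCF HiChIP and none in FGFR1 HiChIP. The other contacts had fewer pairs in NCC CTCF HiChIP, with 0 for both Tekt1 contacts, Rapgef1 and Apol8, 2 for Aes, and 3 each for Dcxr and for Vars. FGFR1 HiChIP had 5 pairs at Aes, 8 at Dcxr, 4 at Rapgef1, 2 and 3 at Tekt1, and 1 each at Apol8 and Vars. As the contacts were picked for their count in ESC CTCF HiChIP, lower counts in the other HiChIP libraries were favoured by the choice. No loss of a contact can be read from them. Apol8 and Txn2 were joined over 170 kb by 10 and 23 pairs, and with neighbours by 14 and 62 (ratio 3.85, 1.99 to 6.95). Adding neighbouring bins lowered the ratio of all 7 contacts that had a Hi-C pair, and that of Aes went to 1.84 (1.003 to 3.14) and that of Wnt7a to 2.81 (1.55 to 4.80). Within Rapgef1 10 pairs stood against 1 in Hi-C, but 16 against 98 with neighbours (2.78, 1.53 to 4.75). Near Dcxr and Rac3 10 stood against 0, but 14 against 197 with neighbours (1.21, 0.650 to 2.08). The contact of Vars with Clic1 and Ddah2 had 10 and 46 pairs, and with neighbours its interval (0.737 to 2.11) held 1.

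Finally, the start sites of gene groups were compared with those of all protein-coding genes. Of 12312 tested start-site bins, CTCF HiChIP was at least 2-fold higher in 17.3% and at least 2-fold lower in 22.2%, and the median log2 ratio was 0.02, against 0.25 over all tested bins. Since bin calls depended on anchor midpoints, single genes are also given by read pairs with an end within 25 kb of the start site. In this window the median ratio over 19978 protein-coding genes was 0.889.

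The start-site bins of pluripotency genes were low, and their windows less so. Of 29 tested bins none was at least 2-fold higher and 11 were lower, the median log2 ratio was -0.66, and the summed ends gave a ratio of 0.627 (0.576 to 0.682). The median of the windows was 0.827, against 0.889 over all genes. The median GC content of their start-site bins was 47.85%, against 45.6% for all protein-coding genes, and its part was not tested. Klf4, one of the reprogramming factors, was the highest of them. Its start-site bin held 30 CTCF HiChIP and 283 Hi-C ends, and its window 73 and 659 pairs, a ratio of 1.89 (1.46 to 2.41), beside 0.355 in FGFR1 HiChIP. Esrrb and Dppa2 followed, with window ratios of 1.02 and 1.40. Myc, Fgf4 and Tdgf1 held 0 CTCF HiChIP ends in their bins. Their windows had ratios of 0.364 (0.254 to 0.505), 0.791 (0.663 to 0.938) and 0.754 (0.607 to 0.926). The lowest window of the list, picked out after its value was seen, was that of Nanog, a core pluripotency factor, with 37 against 2118 pairs (0.298, 0.209 to 0.412). FGFR1 HiChIP had 0.858 there and NCC CTCF HiChIP 0.511.

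The Hox clusters, arrays of developmental regulators whose borders CTCF is known to insulate, differed from each other. None of them held a match to the consensus core searched here. That does not show that CTCF was absent, as the paper reports strong CTCF binding by ChIP-qPCR within HoxA in ESC. The counting intervals of the HoxA and HoxD ratios included a ratio of 1. HoxA (chr6:52150590-52265880) had 280 CTCF HiChIP and 5051 Hi-C pairs, a ratio of 0.945 (0.835 to 1.07), and HoxD (chr2:74663310-74770142) had 209 and 3747 (0.951, 0.823 to 1.09). HoxC (chr15:102916103-103041852) was lower, with 212 and 5663 (0.638, 0.554 to 0.732), and HoxB (chr11:96266457-96373256) lowest, with 150 and 5514 (0.464, 0.392 to 0.546). In FGFR1 HiChIP the order was another, with 0.516 for HoxA, 0.843 for HoxB, 0.748 for HoxC and 1.04 for HoxD. Within HoxB 14.0% of its CTCF HiChIP pairs and 23.03% of its Hi-C pairs joined different anchors of the cluster. The median GC content of start-site bins was 51.0% in HoxA, 50.3% in HoxB and HoxC and 47.65% in HoxD. For all protein-coding genes it was 45.6%, and its part was not tested.

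Genes of CTCF and cohesin themselves had 1 higher and 2 lower bins of 17 and a median log2 ratio of 0.52. Their summed ends gave a ratio of 1.04 with an interval that held 1 (0.942 to 1.16). The median of their windows was 0.871, against 0.889 over all genes. Stag1, a cohesin subunit, was the one higher (69 and 338 ends, window ratio 1.63, 1.33 to 1.98). Pds5b, a cohesin regulator, held 0 CTCF HiChIP ends against 413 (window ratio 0.459, 0.301 to 0.672), and Esco1, a cohesin acetyltransferase, had a window ratio of 0.436. Ctcf itself had 22 and 638 ends and a window ratio of 0.950 (0.767 to 1.16). Of 26 tested bins of imprinted genes, which include known CTCF-insulated loci, 8 were higher and 9 lower. Igf2 was higher at its start site (65 and 235 ends), though its 50 kb window was not (0.939, 0.770 to 1.14).

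The median start-site bins of the developmental and signalling lists were all below that of all genes. Their windows had medians of 0.891 for retinoid, 0.822 for neural, 0.816 for landmark and 0.738 for FGF genes against 0.889. The median GC content of their start-site bins was 50.5% for retinoid, 50.4% for neural, 48.9% for landmark and 50.5% for FGF genes. For all protein-coding genes it was 45.6%, and its part was not tested. Of 23 tested bins of neural genes 1 was higher and 8 lower. Pax3 was the one higher (82 and 610 ends, window ratio 1.49, 1.23 to 1.80), and Lhx2 held 0 CTCF HiChIP ends (window ratio 0.198, 0.117 to 0.313). Genes of retinoid signalling had 4 higher and 6 lower of 15. Aldh1a2, which makes retinoic acid, was the highest, with 59 and 242 ends and a window ratio of 2.001 (1.64 to 2.43), beside 2.31 in NCC CTCF and 0.806 in FGFR1 HiChIP. Stra8 had 118 and 589 ends and a window ratio of 1.53. The lowest bins were those of Rxrg, Rxrb and Cyp26a1, with 0 CTCF HiChIP ends against 349, 772 and 944 Hi-C ends. Rxrb was also low in its window (0.317, 0.232 to 0.422). The window intervals of Rxrg (0.782 to 1.24) and Cyp26a1 (0.742 to 1.12) held 1. Genes of FGF signalling had 0 higher and 3 lower of 15. Fgfr1, the receptor read by the other antibody, had a window ratio of 1.18 (0.969 to 1.42) and Fgfr4 one of 0.200 (0.129 to 0.296). Domain landmark genes had 0 higher and 4 lower of 17, with Shh at 1.30 and Six3 at 0.260.

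Olfactory receptor genes were above all start sites when the ends of all their 1084 bins were summed (ratio 1.47, 1.43 to 1.52), and the median of their windows was 1.24. Only 160 of these sparse bins passed the filter on ends, some through CTCF HiChIP alone, such as that of Olfr1499 with 39 ends against 0, so that the 81 higher and 15 lower bins among them are no measure of the list. The median GC content of their start-site bins was 37.4%, against 45.6% for all protein-coding genes. Antigen receptor V segments, which are joined in lymphocytes, had a summed ratio of 1.502 (1.38 to 1.63) over 331 bins and a window median of 1.28. As only 19 bins passed the filter, their calls (12 higher, 2 lower) are no measure of the list either. Of the 331 bins 65 held a consensus site, and of all 18593 start-site bins 1480 did. The median GC content of the start-site bins of V segments was 39.7%. For neither list was the part of GC content tested.

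Clustered protocadherins, whose promoters are known to be chosen through CTCF loops, had 10 higher and 3 lower of 31 tested bins, a median log2 ratio of 0.56, a summed ratio of 1.38 (1.28 to 1.496) and a window median of 1.16. Of all their 38 bins 15 held a consensus site. The median GC content of their start-site bins was 42.3%, against 45.6% for all protein-coding genes, and its part was not tested. Pcdhb3 had 40 and 172 ends and a window ratio of 2.92 (2.21 to 3.81), beside 2.73 in NCC CTCF and 0.885 in FGFR1 HiChIP. Zinc-finger genes had 54 higher and 42 lower of 224, ribosomal protein genes 12 and 19 of 66, and histone genes 5 and 6 of 25.

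**Figure D5:**
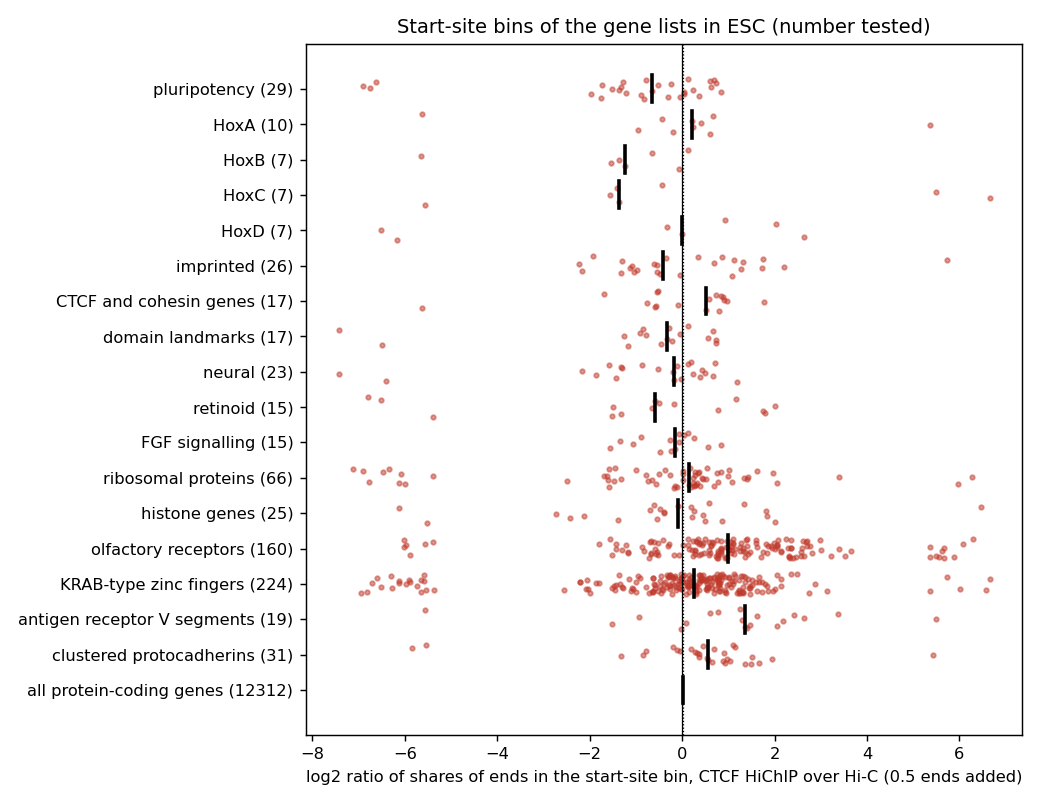
Each point is a tested start-site bin, placed by the log2 ratio of its share of ends in ESC CTCF HiChIP over Hi-C with 0.5 ends added, black bars are list medians, and the dotted line is the median of 12312 protein-coding start-site bins. Points beyond 5 and below -5 are bins in which one library had no end. Pluripotency, HoxB and HoxC medians lie at or below -0.66. Those of olfactory receptors and V segments, at 0.98 and 1.35, rest on the few of their bins that passed the filter on ends.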

How the data were processed

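Counts of read pairs were taken as deposited. According to the study's methods, the authors processed reads with HiC-Pro, counted pairs per anchor pair with hichipper at default settings, and merged 2 replicates per group. The build was mm10 per the labels. All anchors began and ended at restriction sites of GRCm38. Only autosomes were used, NCC FGFR1 HiChIP was not used here, and no counts were filtered. Values by consensus word leave out chromosome 18. Shares, ratios with 95% intervals (Poisson errors that count both ends of a pair, exact intervals for single loci, Wilson intervals for shares) and Fisher's exact tests were computed in Python 3.11.15 with scipy 1.17.1, with gene models of GENCODE M21. Bins were called at 2-fold and a mean of 10 ends. The calls were tested on simulated counts with larger changes put in and anchor placement kept fixed. That test did not cover true changes of 2-fold or the part of anchor placement. Named bins were the 10 highest and 10 lowest with a mean of 50 ends, named genes the 3 highest and 3 lowest of a list, given by counts alone for long lists, and named contacts those with most pairs. Loci, lists and tests were chosen with earlier results of these data known. Alternatives were bin size, fold, filters, scaling, score, anchor placement and consensus form.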

Additional observations from a re-analysis of the deposited data

Results flagged for a closer look

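The same contrast, CTCF HiChIP over Hi-C, was compared between ESC and NCC, and 6 of 7 measures differed by more than counting error. No replicate error could be had, and each cell state was 1 pooled library per method. The log2 ratio of pairs within 1 anchor was 0.44 in ESC and 0.04 in NCC, a difference of 0.40 (0.39 to 0.41). For pairs 100 kb to 1 mb apart it was -0.17 and -0.03 (difference -0.14), and with pairs within 1 anchor left out -0.03 and -0.02 (difference -0.0085). For pairs between autosomes it was -0.03 and 0.09 (difference -0.12), and with pairs within 1 anchor left out 0.12 and 0.10 (difference 0.012). The ratio of bins with a consensus site within GC classes was 0.17 and 0.24 (difference -0.065). Convergent sites, at 0.29 and 0.38, did not pass this test.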

How the results depend on the processing

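No paired analysis was possible because the replicates of each group were merged in the deposited tables, and for the same reason no replicate could be left out. Of the alternatives to values that answer a comparison, 67 kept the direction and the call. Log2 ratios that turned were those of pairs between autosomes (-0.03), with 0.12 when pairs within 1 anchor were left out, 1.27 for interactions of at least 2 read pairs and 0.041 in bins with an anchor in both libraries, and that of bins with a consensus site (-0.04), with 0.068 in 5 kb bins. The latter was -0.0046, with an interval that held 0, without the top 1% of Hi-C bins. Interactions of at least 2 read pairs also moved pairs 100 kb to 1 mb apart from -0.17 to -2.08 and pairs within 1 anchor from 0.44 to 0.88, which was 0.21 in bins with an anchor in both libraries. Bins with a consensus site within GC classes (0.17) ranged from 0.03 with a looser consensus to 0.29 in 5 kb bins, and the ends in anchors with a site, in place of bins, gave -0.50. The log2 odds of convergent sites fell from 0.29 to 0.19 at 100 kb to 1 mb. Higher bins made up 14.6% at 3-fold. Lower bins made up 12.5% at 3-fold, 11.6% without a filter, 12.7% where both libraries had an anchor and 6.82% in 100 kb bins, a size chosen after seeing the data. With the median ratio set to 1, a shift of 0.25, 20.1% of bins were higher and 25.5% lower, and all listed start sites went from 0.09 to -0.16, CTCF and cohesin genes to -0.18 and zinc-finger genes to -0.14. HoxD went to 0.078 without pairs within 1 anchor and 0.23 at a mean of 20 ends, histone genes to 0.047 and 0.60, and imprinted genes to 0.076 at a mean of 20 ends. The cause was not tested. The depth of CTCF HiChIP limits single contacts, nearly all of which rest on 1 read pair.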
